A study of Mus musculus with 120 samples.

Results

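The 6 liver RNA libraries described here, of 120 in the series, come from M mice of CC060, an inbred strain of the Collaborative Cross, a mouse panel that mixes the genomes of several founder strains. They were taken by strain, sex and diet as the sample names give them, 3 from mice on a high-fat and high-sucrose (HF/HS) diet and 3 from mice on the control diet. Milkfat supplied 42% of the energy of the HF/HS diet, which also contained 0.2% cholesterol and over 30% sucrose and was given for 12 weeks. The control diet was matched in ingredients but low in fat and reduced in sucrose. The labels name no transgene, deletion or other agent for either group, and age is not given in the sources used here. Nor do they state whether each of a group's 3 libraries is from its own mouse, so the p-values below measure only the spread between libraries. The series holds M and F livers of 10 strains on both diets, in triplicate. For comparison, the 6 CC060 F libraries and the 54 M libraries of the other 9 strains were used.

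The liver both makes and disposes of cholesterol. When sterols in the endoplasmic reticulum run low, the transcription factor SREBP2 is released and switches on the enzymes of cholesterol synthesis, and when sterols are plentiful it is held back. Oxysterols activate LXR, which turns on the transporters that move sterols into bile, while SREBP1c and ChREBP drive fatty acid synthesis, PPARalpha drives fatty acid oxidation, and CAR and PXR drive the cytochromes P450 that modify drugs, steroids and bile acids. The lists described below follow these branches, with markers of the cell types that liver tissue can hold.

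Values are FPKM-like (fragments scaled to transcript length and library size) on a scale common to the libraries, called scaled FPKM here, and are given in the order replicate 1, 2 and 3. Differences are HF/HS minus control on the log2 scale of scaled FPKM plus 1, with the standard error (SE). That scale understates the change of genes with low values. A gene is called where limma's adjusted p was under 0.05. The depth of these libraries is unknown, since the files give no counts. Control replicate 3 stood apart from the other libraries. Its values summed to 1986957 against 983707 to 1199123 in the other 5 libraries, and its correlation with the other controls across genes was 0.923 and 0.93, against 0.965 between control replicates 1 and 2 and 0.973 to 0.98 among the HF/HS libraries. It read high for genes with short transcripts and low for genes with long transcripts: the median log2 difference from the other controls was 0.87 in the shortest of 4 equal groups of genes by transcript length (79 to 1859 bases) and -0.52 in the longest (4464 bases and over). The other M libraries' medians in these groups lay between -0.47 and 0.30, and those of the HF/HS libraries between -0.06 and 0.07. The median diet difference was -0.32 in the shortest group and 0.19 in the longest, and -0.02 and 0.02 without control replicate 3. Medians and counts from all libraries carry this trend with length. Control F replicate 1 stood apart in its group too, with correlations of 0.928 and 0.932. The count of all calls and those of most lists are therefore also given without these 2 libraries, a choice made after seeing the data.

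**Figure D1:**
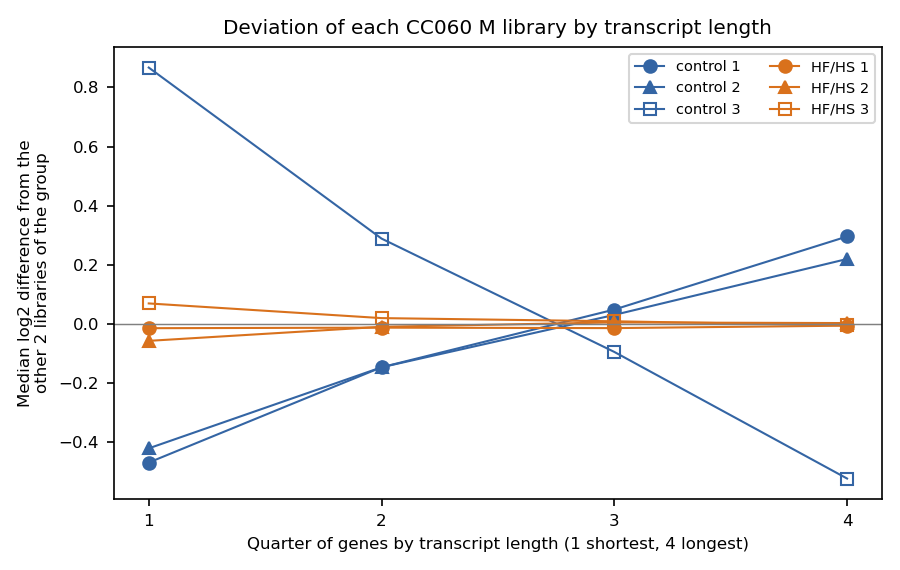
Median log2 difference of each CC060 M library from the other 2 libraries of its group (vertical axis), in 4 equal groups of genes ordered by transcript length (horizontal axis). Control replicate 3 falls from 0.87 in the shortest group to -0.52 in the longest, and the 3 HF/HS libraries lie near 0 in all 4 groups.

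The tissue label fitted its markers. The M sex marker Eif2s3y was at 52.0, 46.2 and 65.9 in the controls and 54.2, 49.7 and 51.7 in the HF/HS livers, Xist did not exceed 1.35 in any of the 6 libraries, and Cyp2e1, a hepatocyte gene, was at 6317, 6715 and 7147 in the controls and 10013, 9308 and 11894 in the HF/HS livers. Alb was listed at 0 in all 6, as a failed estimate can be. Of 13 hepatocyte markers tested none was called. The difference was positive in 4 and negative in 9, with a median of -0.24, and -0.15 without control replicate 3. Wholly above the controls lay 1 and wholly below 3, against 9.33% and 11% of all genes. Muscle markers were under 1 throughout, as were 11 of 12 pancreas markers and 6 of 7 fat cell markers.

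Of 11731 genes with a mean of at least 1, 36 were called in CC060 M livers (0.307%): 15 rose on the HF/HS diet (0.128%) and 21 fell (0.179%). In all, 1264 genes had an unadjusted p under 0.05. The largest rises were in Adam11, Krt23 and Cyp3a11, and the largest falls in the noncoding RNA Rubie, in Tff3 and in Fads1. The values of the 2 diets did not overlap for any of the 36 genes, where 9.33% of all genes tested lay wholly higher and 11% wholly lower. Without the 2 doubtful libraries 35 of the 36 were still called, among 170 calls in all (1.45%), 64 higher (0.546%) and 106 lower (0.904%). The exception was Gnat1, with an adjusted p of 0.0817. Leaving out control replicate 3 alone, with the F libraries kept, left 14 rises (0.119%) and 11 falls (0.0938%), and 19 of the 36 genes were among them. The other 17 were Rubie, Gramd1b, Mmd2, Acacb, Gpc1, Tm6sf2, Fam187b, Gpnmb, Spic, Shb, Atg16l2, Cystm1, Atp4a, Col1a1, Cyp26b1, Pmvk and Gnat1, with adjusted p from 0.0516 (Rubie) to 0.161 (Gnat1). With library weights, which gave control replicate 3 the lowest weight of the 12 libraries (0.0498), 710 genes rose (6.05%) and 762 fell (6.5%). Leaving out 1 other library left 2 calls without HF/HS replicate 3, 10 and 12 without HF/HS replicates 1 and 2, 9 without control replicate 2, 20 to 22 without an F HF/HS library and 88 without control F replicate 1. The sign of all 36 genes was the same in every alternative fit in which they were tested.

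**Figure D2:**
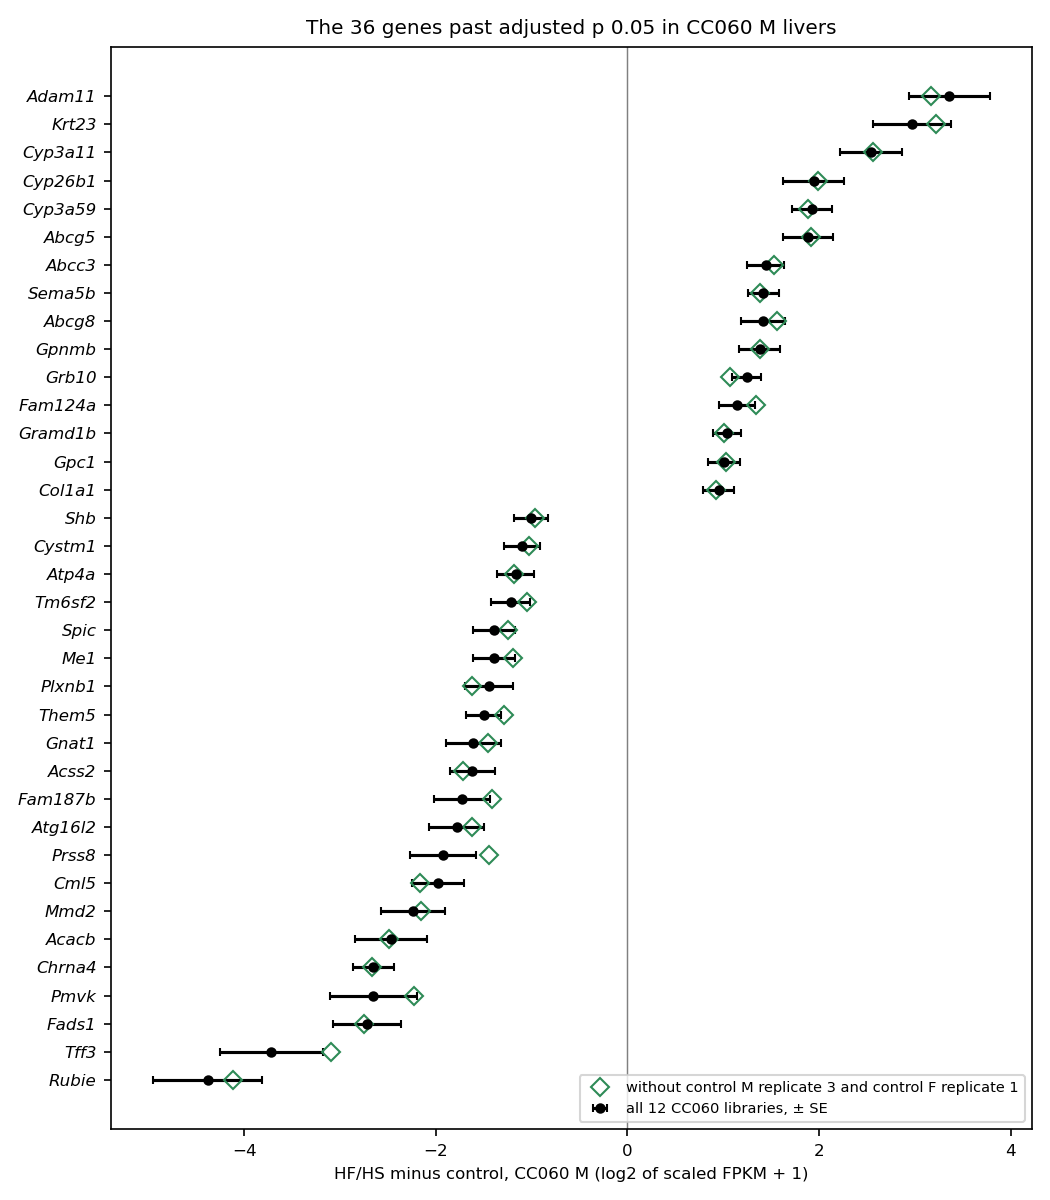
Log2 difference between HF/HS and control CC060 M livers (horizontal axis) for the 36 called genes, with all 12 CC060 libraries in the fit (filled points, bars are ± SE) and without control M replicate 3 and control F replicate 1 (open diamonds). Both fits place every gene on the same side of 0.

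Cholesterol synthesis genes lay lower on the HF/HS diet along nearly the whole pathway. Of 21 genes, 1 fell past the threshold and none rose, and the median difference was -1.51, against -0.03 over all genes tested. In 19 of the 21, all HF/HS values lay below all control values, where 11% of all genes tested did so. Without the 2 doubtful libraries 6 of the 21 fell, Pmvk, Lss, Tm7sf2 and Sc5d among them, against 0.904% of all genes, and the median was -1.50. Without control replicate 3 alone none of the 21 was called, with the same median. With library weights 15 of the 21 fell, against 6.5% of all genes, and in the fit on the 60 M libraries 18 did, against 12.9%.

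Acat2 and Hmgcs1 act at the start of the mevalonate branch. Hmgcs1 stood at 29.9, 21.9 and 14.2 in the control livers and 12.5, 12.0 and 10.8 in the HF/HS livers, without overlap (log2 difference -0.79 ± 0.63, adjusted p = 0.563). The member that fell with all libraries was Pmvk, phosphomevalonate kinase, at 57.6, 66.1 and 152 in the control livers and 13.6, 12.8 and 11.0 in the HF/HS livers (log2 difference -2.65 ± 0.45, adjusted p = 0.0375). Its highest control value was that of replicate 3, and without the 2 libraries the difference was -2.22 (adjusted p = 0.0131). Without control replicate 3 alone, with control F replicate 1 kept, the difference was the same and the adjusted p was 0.104. Mvk and Mvd, its neighbours in the branch, differed by -1.34 and -1.85 without passing the test.

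Idi1 and Fdps build the isoprenoid chain. Fdps stood at 303, 269.6 and 685 in the control livers and 36.9, 41.9 and 26.7 in the HF/HS livers (log2 difference -3.43 ± 0.90, adjusted p = 0.196) and Idi1 at 49.7, 25.6 and 36.7 in the control livers and 8.07, 5.60 and 5.50 in the HF/HS livers (log2 difference -2.34 ± 0.71, adjusted p = 0.282). Neither was called, although the groups lay far apart: the fit shares its spread with the F libraries, where control values of Fdps ran from 15.7 to 434.1. Fdft1, the squalene synthase, differed by -1.49 and Ggps1, which leads away from sterols, overlapped at 5.40, 4.13 and 2.09 in the control livers and 5.33, 3.74 and 4.23 in the HF/HS livers (log2 difference 0.21 ± 0.23, adjusted p = 0.663).

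Sqle, squalene epoxidase and a rate-limiting step, was low in every HF/HS liver. Its values were 16.4, 16.4 and 14.1 in the control livers and 0.594, 0.682 and 0.454 in the HF/HS livers, and each diet's values lay close together. The log2 difference was -3.40 ± 0.87 with an adjusted p of 0.185, and the 3 F controls that share the fit read 1.47, 8.92 and 75.9. In the fit on the 60 M libraries, whose spread is pooled over the M livers of all 10 strains, the adjusted p was 1.42e-07.

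After squalene, Lss makes lanosterol, and Cyp51, Tm7sf2, Msmo1, Nsdhl, Hsd17b7, Ebp, Sc5d and Dhcr7 act between it and cholesterol. Lss stood at 14.2, 17.7 and 15.6 in the control livers and 5.56, 6.51 and 4.61 in the HF/HS livers (log2 difference -1.36 ± 0.27, adjusted p = 0.0846, and 0.0377 without the 2 libraries). Dhcr7 stood at 53.6, 59.98 and 52.1 in the control livers and 11.0, 13.6 and 9.65 in the HF/HS livers (log2 difference -2.19 ± 0.44, adjusted p = 0.0875). Sc5d stood at 214, 152 and 185 in the control livers and 64.3, 70.5 and 55.6 in the HF/HS livers (log2 difference -1.51 ± 0.54, adjusted p = 0.376). All 3 were separated by diet, and so were Cyp51, Tm7sf2, Msmo1, Nsdhl and Ebp, whose differences were -2.56, -1.84, -1.98, -2.14 and -0.63. Hsd17b7 overlapped, since control replicate 3 read 11.3 and the HF/HS livers 11.8 to 12.4, and Acat2 differed by -0.49.

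**Figure D3:**
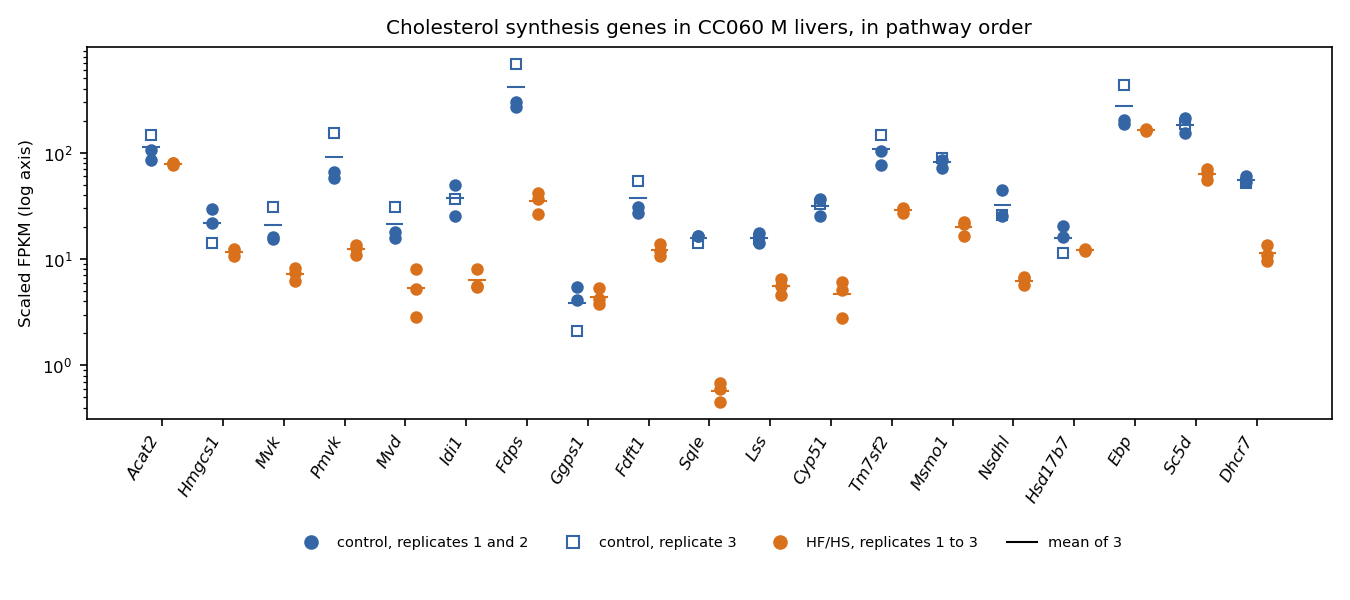
Scaled FPKM (log axis) of 19 cholesterol synthesis genes in each CC060 M library, in pathway order, with the mean of 3 as a line. The diets do not overlap in 17 of these 19 genes. Sqle lies at 14.1 to 16.4 on the control diet and at 0.454 to 0.682 on the HF/HS diet.

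Promoter windows are shown for the cholesterol genes that fell without the 2 libraries and had a single window, since these genes moved together. RefSeq windows (GRCm38.p6, 250 bases before to 50 after a gene start) were found for 16 of the 21 genes, 19 windows in all. Searched on both strands, CCAAT, the box bound by NF-Y, occurred in 15 of the 19 windows and in 37.4% of all 32851 windows. The sterol regulatory element was searched as TCACCCCAC and as TCACNCCAC, of which the first is contained in the second. Each occurred in 1 window, that of Hmgcs1, against 0.551% and 1.24% of all windows. The 3 windows below are written 5′ to 3′ on the strand of the gene, and the capitals mark the CCAAT box, which in all 3 lies on the opposite strand.
Lss, chr10:76531355-76531654, plus strand: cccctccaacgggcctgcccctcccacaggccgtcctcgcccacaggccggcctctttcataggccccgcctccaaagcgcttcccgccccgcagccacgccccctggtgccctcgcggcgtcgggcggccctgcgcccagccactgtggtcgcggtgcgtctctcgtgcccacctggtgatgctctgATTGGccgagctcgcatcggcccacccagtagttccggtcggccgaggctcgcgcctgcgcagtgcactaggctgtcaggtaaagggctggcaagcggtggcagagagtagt
Sc5d, chr9:42264251-42264550, minus strand: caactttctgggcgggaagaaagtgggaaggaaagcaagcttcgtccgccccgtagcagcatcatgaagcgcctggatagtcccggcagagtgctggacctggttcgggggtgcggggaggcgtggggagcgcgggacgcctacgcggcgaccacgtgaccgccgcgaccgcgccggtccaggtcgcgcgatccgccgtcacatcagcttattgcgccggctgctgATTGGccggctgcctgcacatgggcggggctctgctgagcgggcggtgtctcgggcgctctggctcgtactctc
Tm7sf2, chr19:6067801-6068100, minus strand: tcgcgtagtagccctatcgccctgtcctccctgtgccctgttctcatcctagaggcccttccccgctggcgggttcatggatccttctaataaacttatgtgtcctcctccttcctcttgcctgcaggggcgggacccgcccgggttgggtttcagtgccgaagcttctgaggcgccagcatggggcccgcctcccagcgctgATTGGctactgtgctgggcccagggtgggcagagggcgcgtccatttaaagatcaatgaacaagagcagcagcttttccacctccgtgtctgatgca
The box begins 62 bases before the start of Lss, 24 before that of Sc5d and 47 before that of Tm7sf2. A match of letters is a description of the sequence and not evidence of binding.

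Genes of SREBP2 control and sterol uptake were mixed. None of 13 was called with all libraries (median -0.17), and 4 fell without the 2 doubtful libraries, against 0.904% of all genes, Srebf2, Npc2 and Stard4 among them. Srebf2, which encodes SREBP2, stood at 16.2, 15.9 and 8.05 in the control livers and 8.44, 8.12 and 7.33 in the HF/HS livers (log2 difference -0.63 ± 0.29, adjusted p = 0.468, and 0.0475 without the 2 libraries). Insig1, which holds SREBPs in the endoplasmic reticulum, stood at 245, 284 and 289 in the control livers and 95.8, 108 and 52.6 in the HF/HS livers (log2 difference -1.72 ± 0.67, adjusted p = 0.406).

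Sterol export genes lay mostly higher. Of 11 LXR and sterol efflux genes, 2 rose, against 0.128% of all genes, and none fell (median 0.52). In 9 the difference was positive and in 2 negative. Of the 11, 5 lay wholly above and 1 wholly below the controls, against 9.33% and 11% of all genes. Without the 2 doubtful libraries 3 rose, against 0.546%. Abcg5 and Abcg8 together form the transporter that secretes cholesterol into bile. Abcg5 stood at 15.1, 18.5 and 17.9 in the control livers and 84.3, 52.0 and 64.9 in the HF/HS livers, a rise of 3.91-fold in the mean (log2 difference 1.88 ± 0.26, adjusted p = 0.0149). Abcg8 stood at 26.8, 22.6 and 33.5 in the control livers and 87.5, 61.3 and 76.2 in the HF/HS livers, a rise of 2.71-fold (log2 difference 1.41 ± 0.23, adjusted p = 0.0356). In both, HF/HS replicate 2 was the lowest of its group and still above every control. Abcg1, a macrophage sterol exporter, and Abca1, which loads HDL, were not called (log2 difference 0.52 ± 0.18, adjusted p = 0.347 and log2 difference 1.001 ± 0.46, adjusted p = 0.467). Gramd1b, a protein that carries cholesterol from the plasma membrane to the endoplasmic reticulum, rose from 0.752, 0.676 and 0.612 to 2.94, 2.62 and 1.88 (log2 difference 1.04 ± 0.15, adjusted p = 0.0185).

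The Abcg5 and Abcg8 genes lie head to head on chromosome 17, and RefSeq places their starts 110 bases apart (a second Abcg8 start lies further upstream of that gene). Their windows share 209 bases, so that 1 stretch covers the space between the genes. The Abcg5 window is shown for that reason, with a CCAAT box in capitals at its start site.
Abcg5, chr17:84682962-84683261, minus strand: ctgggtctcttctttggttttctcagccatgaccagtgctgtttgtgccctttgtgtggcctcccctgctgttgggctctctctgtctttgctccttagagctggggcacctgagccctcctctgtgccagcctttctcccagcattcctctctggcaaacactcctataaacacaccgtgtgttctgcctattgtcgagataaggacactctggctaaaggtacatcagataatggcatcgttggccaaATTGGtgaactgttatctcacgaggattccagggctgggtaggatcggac
It held none of the other motifs searched.

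Fatty acid synthesis genes were also lower. Of 21, 4 fell, against 0.179% of all genes, and none rose (median -0.82), and 13 lay wholly below the controls, against 11% of all genes. Without the 2 libraries 8 fell, against 0.904%, and without control replicate 3 alone 3 fell, against 0.0938%. Fads1, the delta-5 desaturase that completes arachidonic acid, fell from 232, 213 and 207 to 30.6, 35.3 and 30.6 (log2 difference -2.72 ± 0.35, adjusted p = 0.0115). The spread was small on both diets, so the 6.75-fold lower mean was far outside it. Acacb makes the malonyl-CoA that restrains entry of fatty acids into mitochondria. It fell from 22.3, 32.5 and 25.6 to 3.51, 4.15 and 4.24 (log2 difference -2.47 ± 0.37, adjusted p = 0.0239).

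Acss2, which charges acetate to acetyl-CoA, fell from 147, 108 and 102 to 41.7, 36.7 and 34.4 (log2 difference -1.62 ± 0.24, adjusted p = 0.0202). Me1, malic enzyme and a source of NADPH, fell from 83.7, 60.1 and 107 to 31.5, 27.9 and 31.8 (log2 difference -1.39 ± 0.22, adjusted p = 0.027). Acly, which supplies acetyl-CoA, and Fasn, the fatty acid synthase, lay lower without passing the test. Acly stood at 137, 179 and 188 in the control livers and 57.6, 38.0 and 35.6 in the HF/HS livers (log2 difference -1.94 ± 0.42, adjusted p = 0.107, and 0.0184 without the 2 libraries), and Fasn at 89.3, 129 and 145 in the control livers and 41.7, 22.5 and 16.4 in the HF/HS livers (log2 difference -2.21 ± 0.66, adjusted p = 0.267). The regulator Srebf1 overlapped between diets, at 120.4, 153 and 165 in the control livers and 189, 138 and 115 in the HF/HS livers, and so did the desaturase Scd1, at 2049, 3514 and 1768 in the control livers and 3466, 2670.4 and 2491 in the HF/HS livers.

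Fatty acid oxidation and ketogenesis genes lay mostly higher, yet none of 32 was called with all libraries or without the 2, and the fit on the 60 M libraries called 10, all higher, against 9.27% of all genes. The median difference was 0.45. In 12 of the 32 all HF/HS values were above all controls and in none below, against 9.33% and 11% of all genes tested. Ehhadh, a peroxisomal oxidation enzyme and PPARalpha target, stood at 131, 71.6 and 59.7 in the control livers and 277, 251 and 350.0 in the HF/HS livers (log2 difference 1.80 ± 0.43, adjusted p = 0.149). Vnn1 stood at 3.18, 2.50 and 2.35 in the control livers and 10.5, 8.69 and 28.1 in the HF/HS livers (log2 difference 2.01 ± 0.44, adjusted p = 0.107), and HF/HS replicate 3 was far above the others. Aldh3a2, a fatty aldehyde dehydrogenase, stood at 85.9, 56.1 and 45.2 in the control livers and 156, 150.4 and 195 in the HF/HS livers (log2 difference 1.45 ± 0.33, adjusted p = 0.121). Cpt1a, the gate of mitochondrial oxidation, overlapped and differed by 0.50. Promoter windows were found for 26 of the 34 listed genes. Of their 29 windows 15 held CCAAT and 1, that of Ehhadh, held TCACNCCAC. The direct repeat of AGGTCA with 1 base between the copies, the form bound by PPARalpha with its partner RXR, was in none of the windows of either list and in 0.0396% of all windows.

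None of 24 genes of lipid uptake, droplets and storage was called (median 0.09, and 0.28 without control replicate 3). Fabp5, a fatty acid binding protein, lay lower at 152, 309 and 365 in the control livers and 23.8, 40.1 and 40.5 in the HF/HS livers (log2 difference -2.89 ± 0.68, adjusted p = 0.139). Lpl, lipoprotein lipase, lay higher at 36.5, 13.4 and 35.2 in the control livers and 82.0, 62.3 and 82.4 in the HF/HS livers (log2 difference 1.49 ± 0.44, adjusted p = 0.267), as did Cd36, a fatty acid transporter (log2 difference 0.95 ± 0.38, adjusted p = 0.423). The droplet coat gene Plin2 overlapped, at 479, 329.7 and 495 in the control livers and 354, 513 and 523 in the HF/HS livers. Among secretion genes, Tm6sf2, which helps to load lipid onto VLDL, fell from 19.7, 28.5 and 33.9 to 11.8, 10.7 and 10.3 (log2 difference -1.22 ± 0.21, adjusted p = 0.0375). Them5, an acyl-CoA thioesterase, fell from 3.54, 2.56 and 5.19 to 0.598, 0.565 and 0.764 (log2 difference -1.50 ± 0.18, adjusted p = 0.0115).

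**Figure D4:**
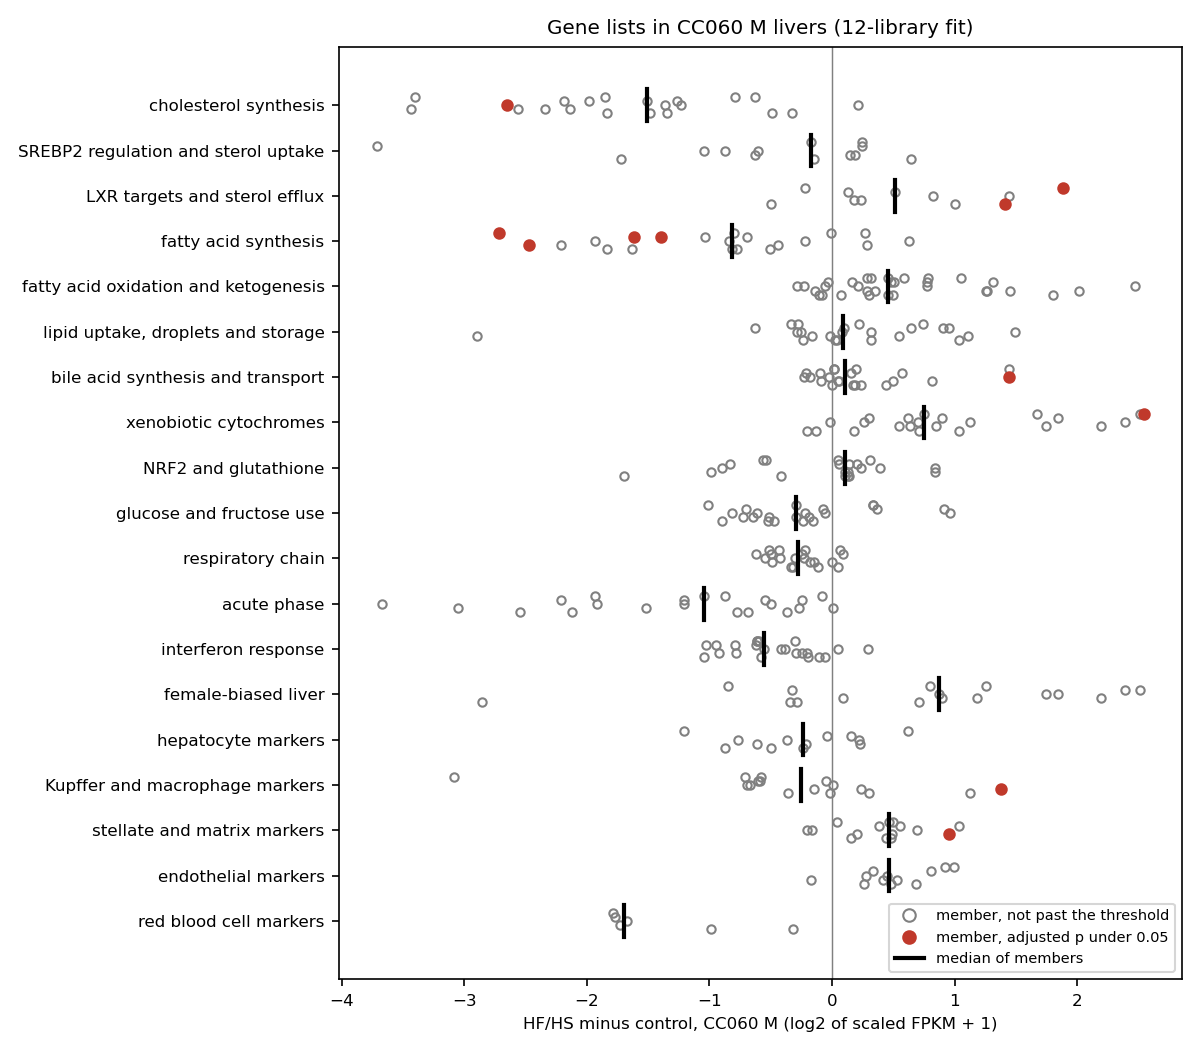
Log2 difference between HF/HS and control CC060 M livers (horizontal axis) for each tested member of 19 gene lists, with the list's median as a bar and called members filled. The median is -1.51 for cholesterol synthesis, -0.82 for fatty acid synthesis and 0.75 for xenobiotic cytochromes.

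Xenobiotic cytochromes P450 lay higher as a group. Of 23, 1 rose, against 0.128% of all genes, and none fell (median 0.75), and 16 were wholly above the controls, against 9.33% of all genes. Cyp3a11, the main drug-metabolising P450 of mouse liver and a PXR target, rose from 892, 374 and 599 to 4748, 3072 and 2722 (log2 difference 2.54 ± 0.33, adjusted p = 0.0115). Its relative Cyp3a59 rose from 11.5, 11.3 and 10.5 to 53.0, 45.1 and 37.8 (log2 difference 1.92 ± 0.21, adjusted p = 0.00948). The Cyp3a genes are close copies of each other, and how reads were shared between them is uncertain. Cyp2b9 stood at 23.5, 19.6 and 7.91 in the control livers and 116, 68.4 and 78.9 in the HF/HS livers (log2 difference 2.39 ± 0.46, adjusted p = 0.0828), Cyp2c37 at 189, 165 and 199.6 in the control livers and 664, 584 and 527 in the HF/HS livers (log2 difference 1.68 ± 0.34, adjusted p = 0.0896) and Cyp3a25 at 234, 216 and 244 in the control livers and 553, 502 and 463 in the HF/HS livers (log2 difference 1.12 ± 0.23, adjusted p = 0.092). These 3 and Cyp3a11 were called without the 2 doubtful libraries, the 3 with adjusted p of 0.0274, 0.0205 and 0.0384, which makes 4 of 23 against 0.546% of all genes. Cyp2b10, the usual marker of CAR activity, overlapped at 0.652, 1.41 and 2.76 in the control livers and 2.45, 1.27 and 1.79 in the HF/HS livers.

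Of 22 bile acid genes 1 rose, against 0.128% of all genes, and 2 rose without the 2 libraries, against 0.546%. Abcc3, which exports bile acids and glucuronides from hepatocytes to blood, rose from 26.6, 23.2 and 30.3 to 69.3, 78.4 and 73.9 (log2 difference 1.44 ± 0.20, adjusted p = 0.0149). Cyp7a1, the rate-limiting enzyme of bile acid synthesis, stood at 24.1, 14.9 and 11.4 in the control livers and 96.1, 28.9 and 33.3 in the HF/HS livers (log2 difference 1.44 ± 0.47, adjusted p = 0.322), and HF/HS replicate 1 alone was far above the rest. Cyp26b1, which degrades retinoic acid, rose from 0.631, 2.09 and 1.45 to 4.80, 11.0 and 9.14 (log2 difference 1.95 ± 0.32, adjusted p = 0.0356). Nuclear factor NRF2 and glutathione genes held no call among 21 with all libraries, and without the 2 libraries 1 fell (Gstm2, a glutathione transferase), against 0.904%. The list's median was 0.11, with 14 differences positive and 7 negative. Wholly above the controls lay 2 and wholly below 5, against 9.33% and 11% of all genes. Hmox1, haem oxygenase, stood at 121, 95.9 and 93.6 in the control livers and 42.5, 29.5 and 23.9 in the HF/HS livers (log2 difference -1.70 ± 0.31, adjusted p = 0.0547).

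The largest rise was in Adam11, a membrane protein of the ADAM family known mainly from the nervous system. It stood at 3.29, 13.8 and 4.29 in the control livers and 85.7, 59.5 and 68.0 in the HF/HS livers, a rise of 10.0-fold in the mean (log2 difference 3.36 ± 0.42, adjusted p = 0.0115). Control replicate 2 was the highest control and still far below every HF/HS liver. Krt23, a type I keratin, rose from 0.858, 0.188 and 1.49 to 8.74, 15.4 and 15.6 (log2 difference 2.97 ± 0.40, adjusted p = 0.0149). Gpnmb, a glycoprotein of lipid-laden macrophages, rose from 0.129, 0.158 and 0.164 to 1.04, 3.07 and 2.24 (log2 difference 1.38 ± 0.22, adjusted p = 0.0285).

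Grb10, an adaptor that damps signalling by the insulin receptor, rose from 2.80, 2.98 and 1.71 to 7.77, 6.51 and 7.23 (log2 difference 1.24 ± 0.16, adjusted p = 0.0115). Sema5b, a semaphorin guidance protein, rose from 0.626, 0.348 and 0.388 to 3.29, 2.32 and 3.07 (log2 difference 1.42 ± 0.16, adjusted p = 0.0115). The heparan sulfate carrier Gpc1 rose from 3.58, 2.86 and 3.40 to 7.76, 7.03 and 8.03 (log2 difference 1.01 ± 0.17, adjusted p = 0.0375). In these 3 the values of each diet lay close together. Fam124a rose by 1.14 and Col1a1, the main fibrillar collagen chain, by 0.95.

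Rubie, a long noncoding RNA, showed the largest fall. It stood at 18.7, 44.3 and 51.2 in the control livers and 0.888, 0.584 and 0.716 in the HF/HS livers, 52.2-fold lower in the mean (log2 difference -4.38 ± 0.57, adjusted p = 0.0115), and all HF/HS livers were under 1. The labels do not state that strand was used in counting, so reads of Rubie and of any gene on the other strand cannot be told apart. Tff3, a trefoil peptide secreted by epithelia and hepatocytes, fell from 6.94, 28.1 and 54.3 to 1.43, 0.405 and 0.643 (log2 difference -3.72 ± 0.54, adjusted p = 0.0198). Its controls spanned a wide range, from 6.94 in replicate 1 to 54.3 in replicate 3.

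Chrna4, a nicotinic acetylcholine receptor subunit, had the lowest p of all genes. It fell from 5.23, 6.38 and 5.59 to 0.0894, 0.0771 and 0.0410 (log2 difference -2.65 ± 0.21, adjusted p = 0.00078), and its controls lay close together. Mmd2 fell from 6.34, 12.5 and 10.8 to 2.36, 1.004 and 0.652 (log2 difference -2.24 ± 0.33, adjusted p = 0.0202), and Cml5, of an N-acetyltransferase family, from 27.4, 44.1 and 23.1 to 9.49, 4.65 and 7.56 (log2 difference -1.97 ± 0.27, adjusted p = 0.0149). Spic, a transcription factor of iron-recycling macrophages, fell from 5.64, 4.94 and 7.45 to 1.24, 2.59 and 1.29 (log2 difference -1.39 ± 0.22, adjusted p = 0.0332). The protease gene Prss8, Atg16l2, Fam187b, Gnat1, the semaphorin receptor Plxnb1, the proton pump subunit Atp4a, Cystm1 and the adaptor Shb fell too, by 1.004 to 1.92 on the log2 scale.

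Control replicate 2 had the highest level of acute-phase genes. The summed level of 21 acute-phase genes was 219400 in that library, 32650 and 66900 in the other controls and 26560 to 29900 in the HF/HS livers. Saa1 stood at 1247, 54930.1 and 4565 in the control livers and 581, 917 and 1031 in the HF/HS livers and Saa2 at 460.1, 59652 and 1208 in the control livers and 211, 287 and 263 in the HF/HS livers. Neutrophil markers were highest in the same library: 9 listed markers summed to 93.6 there, against 3.71 and 18.2 in the other controls and 8.93 to 11.3 on the HF/HS diet. No acute-phase gene was called, although the median difference was -1.04 and 12 of 21 lay wholly below the controls, against 11% of all genes. Without control replicate 2, 5 genes rose and 4 fell, and 8 of the 36 genes were among them; the part of this library's state in the result was not tested.

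Markers of other liver cells were compared because a lower level in bulk tissue can come from fewer cells of a type or from less RNA per cell, which cannot be told apart here. Of 16 Kupffer cell and macrophage markers Gpnmb rose, with all libraries and without the 2 doubtful ones, and none fell (median -0.25). The shares of all genes that rose were 0.128% and 0.546%. The call of Gpnmb was lost without control replicate 3 alone (adjusted p = 0.0909). Of the 16 markers 5 had a positive and 11 a negative difference. Wholly above the controls lay 2 and wholly below 5, against 9.33% and 11% of all genes. Marco, a scavenger receptor, stood at 5.97, 41.0 and 24.5 in the control livers and 1.02, 2.43 and 0.775 in the HF/HS livers (log2 difference -3.08 ± 0.82, adjusted p = 0.202), and the resident cell markers Cd5l and Timd4 lay wholly below the controls (-0.70 and -0.61). The summed level of 18 such markers was 565.3 to 829.6 on the control diet and 500.8 to 644.9 on the HF/HS diet.

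Endothelial markers lay higher in 11 of 12, with none called and a median of 0.47, and 9 of 12 were wholly above the controls, against 9.33% of all genes. Kdr, the VEGF receptor of vessels, stood at 8.41, 7.66 and 5.66 in the control livers and 13.2, 15.6 and 14.7 in the HF/HS livers (log2 difference 0.92 ± 0.24, adjusted p = 0.178). Stab2, a scavenger receptor of sinusoids, stood at 16.6, 13.7 and 11.1 in the control livers and 26.2, 29.9 and 28.7 in the HF/HS livers (log2 difference 0.996 ± 0.32, adjusted p = 0.311), and was called without the 2 libraries (adjusted p = 0.0319). The 12 markers' summed level was 196.5 to 295.2 on the control diet and 271.4 to 276.4 on the HF/HS diet, so the sums overlapped. Control replicate 3 was lowest for Kdr and Stab2. Without it the median was 0.52, and 11 of 12 lay wholly above the controls, against 17.8% of all genes.

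Among 15 stellate cell and matrix markers Col1a1 rose, from 1.91, 1.15 and 1.35 to 3.01, 3.96 and 4.36 (log2 difference 0.95 ± 0.16, adjusted p = 0.0375), and none fell (median 0.47). This 1 call compares with 0.128% of all genes that rose. In the list 5 lay wholly above the controls and none wholly below, against 9.33% and 11% of all genes. Without control replicate 3 the list's median was 0.29. Col1a1 was also called without the 2 libraries (adjusted p = 0.0428), the only call of the list there, against 0.546% of all genes. It was not called without control replicate 3 alone (adjusted p = 0.104). Col3a1 stood at 11.0, 7.10 and 5.12 in the control livers and 15.5, 15.5 and 17.8 in the HF/HS livers (log2 difference 1.04 ± 0.34, adjusted p = 0.323) and Col1a2 at 4.91, 3.54 and 3.17 in the control livers and 5.98, 7.39 and 7.09 in the HF/HS livers (log2 difference 0.69 ± 0.17, adjusted p = 0.163), both separated by diet but not called. Red blood cell markers lay lower, with a median of -1.70 over 6 tested and none called. The beta globin Hbb-b1 stood at 1042, 803 and 2314 in the control livers and 508, 296 and 323 in the HF/HS livers (log2 difference -1.77 ± 0.61, adjusted p = 0.35). The globins are short, close copies of each other, and control replicate 3 was the highest for each. Without it the list's median was -0.86.

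Female-biased liver genes tended to lie higher in these M livers. Of 17 tested none was called, the median was 0.87, and 9 were wholly above the controls and 2 wholly below, against 9.33% and 11% of all genes. Cyp3a44 stood at 4.24, 1.996 and 1.30 in the control livers and 26.0, 15.6 and 13.8 in the HF/HS livers (log2 difference 2.51 ± 0.61, adjusted p = 0.149) and Cyp3a16 at 2.58, 1.12 and 1.44 in the control livers and 16.6, 9.39 and 8.66 in the HF/HS livers (log2 difference 2.19 ± 0.63, adjusted p = 0.251). Cyp17a1, a steroid hydroxylase on the same list, went the other way at 18.2, 26.1 and 28.0 in the control livers and 2.92, 1.26 and 3.55 in the HF/HS livers (log2 difference -2.85 ± 0.61, adjusted p = 0.103), and fell without the 2 libraries (adjusted p = 0.0377), where Cyp2b9, described above, rose. As said above of the Cyp3a genes, how reads were shared between Cyp3a44, Cyp3a16 and the far higher Cyp3a11 is uncertain. In CC060 F livers the female-biased list's median difference was -0.23. No call was made in either direction in lists of interferon response (23 genes tested, median -0.55), respiratory chain (20, -0.27, and 0.02 without control replicate 3) or circadian clock (18, -0.17).

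The difference between M and F livers of CC060 was tested directly, since a call in M and none in F does not show that they differ. In F livers no gene was called with limma (542 had an unadjusted p under 0.05), and none was called for the M minus F difference (508 at an unadjusted p under 0.05; the lowest adjusted p was 0.112). Without the 2 doubtful libraries 2 genes were called for the M minus F difference, Chrna4 lower and Serpina1e, listed at 0 in both remaining M controls, higher (0.017% in all, 0.00852% in each direction). Of the 15 genes that rose in M livers 12 had the same sign in F, and of the 21 that fell 15 did. Adam11 differed by 3.26 in F livers, where the groups were also separated, as in 8.17% of all genes tested with the HF/HS values above and 7.09% with them below (4.26, 3.47 and 1.87 against 48.1, 44.7 and 25.6). The sterol exporters Abcg5 and Abcg8 differed by 1.97 and 1.49 in F livers, close to their M values, and their M minus F differences were -0.09 ± 0.37 and -0.08 ± 0.33.

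Cyp26b1 was separated in both sexes but in opposite directions. Its F values were 5.54, 10.1 and 5.81 on the control diet and 1.43, 1.78 and 2.33 on the HF/HS diet, and the M minus F difference was 3.43 ± 0.45 (adjusted p = 0.112). Fads1 differed by 0.07 in F livers, with controls at 86.7, 276 and 202 and HF/HS values at 211, 134 and 199.6 (M minus F -2.79 ± 0.50, adjusted p = 0.324). Chrna4 was low in F livers on both diets, at 0.0340, 1.02 and 0.791 and 0.181, 0.0261 and 0.0147 (M minus F -2.12 ± 0.30, adjusted p = 0.114). Without the 2 libraries its M minus F difference was -1.84 and was called (adjusted p = 0.0192). Its F values were near or under 1 on both diets, where the log2 scale of scaled FPKM plus 1 understates a change. The M minus F difference carries that limit. Cml5, at 23.1 to 44.1 in M controls, was under 1 in all F livers.

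**Figure D5:**
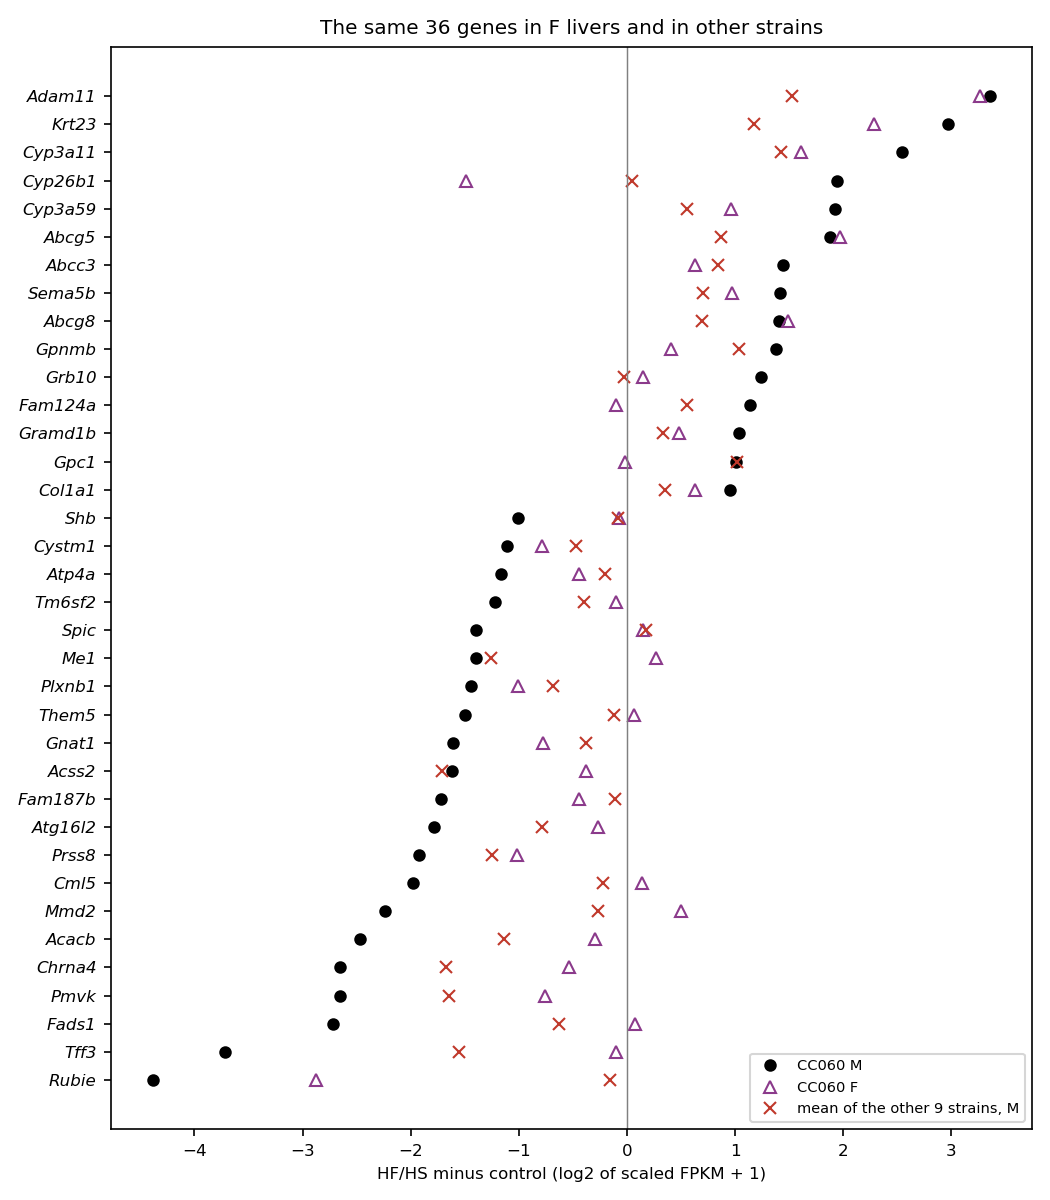
Log2 difference between HF/HS and control (horizontal axis) for the 36 genes called in CC060 M livers, in CC060 M (filled points), CC060 F (triangles) and as the mean of the other 9 strains' M livers (crosses). Cyp26b1 is at 1.95 in M and -1.49 in F, and Rubie is at -4.38 in CC060 M and -0.15 in the other strains.

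Set against the other 9 strains' M livers, the diet effect of CC060 M differed for 1651 genes (14.1%), 679 more positive (5.79%) and 972 more negative (8.29%). With quantile normalization the split was 844 and 652. The count fell to 139 (1.18%), 67 (0.571%) and 72 (0.614%), without control replicate 3, and was 531, 560 and 930 without HF/HS replicates 1, 2 and 3 and 4342 and 3772 without control replicates 1 and 2. Single genes are therefore given with both adjusted p-values, that without control replicate 3 second. The fit on the 60 M libraries shares 1 spread per gene over all strains. The CC060 M controls had the largest median SD (log2) of all M groups, 0.363, and 0.114 without replicate 3. The 18 M groups of the other strains ran from 0.0772 to 0.189. The p-values and counts of that fit can therefore be too favourable to a difference in CC060 M. The other strains shared the sign of 14 of the 15 rises and 20 of the 21 falls. The difference was called for 9 of the rises and 15 of the falls, and for 5 and 9 of them without control replicate 3. These 36 genes were picked by their diet difference in the same CC060 M libraries. That favours a difference from the other strains, so these counts are not independent of the first calls. For cholesterol synthesis the other strains' median difference was -1.44, next to -1.51 in CC060 M. In the other strains 20 of the 21 genes were called lower, against 7.8% of all genes. Against the other strains 1 was called more positive and 3 more negative, next to 5.79% and 8.29% of all genes. Without control replicate 3, 1 was called more negative, next to 0.614%, and none more positive. Sqle differed by -3.37 in the other strains.

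Rubie differed most among the called genes: -4.38 in CC060 M against -0.15 in the other strains (adjusted p = 6.45e-22 and 9.82e-21). The SE of that contrast was 0.19, against 0.57 for the diet effect of CC060 M in the 12-library fit. In CC060 F livers Rubie stood at 33.9, 4.70 and 6.90 on the control diet and 0.292, 0.638 and 0.876 on the HF/HS diet, also without overlap, and differed by -2.88 (not called, M minus F -1.51 ± 0.80, adjusted p = 0.79). Fads1 fell in CC060 M by more than in the other strains, where it differed by -0.62 (adjusted p = 5.62e-05 and 0.000764). Grb10 was level in the other strains at -0.02 (adjusted p = 3.59e-05 and 0.0016). Adam11, which rose in CC060 M by 3.36, differed by 1.53 in the other strains (adjusted p = 0.000274 and 0.00799). Abcg5 and Abcg8 differed by 0.87 and 0.69 in the other strains. The contrast with CC060 M had adjusted p = 0.0192 and 0.0972 for Abcg5 and 0.0615 and 0.158 for Abcg8. Neither was called without control replicate 3. Of the 12 endothelial markers 7 were called more positive in CC060 M without control replicate 3, against 0.571% of all genes. Kdr differed by -0.11 in the other strains (adjusted p = 1.97e-06 and 9.81e-05).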

How the data were processed

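Liver RNA was sequenced in 120 libraries (10 strains, M and F, 2 diets, 3 libraries a group) from 500 ng of RNA. Per the submitters' processing notes the authors used Cufflinks 2.2.1, TopHat2 2.1.1 and Bowtie2 2.2.5.0 with the mouse build mm10. The labels name both a total RNA kit and an mRNA kit and do not say which library had which. The deposited values were read as FPKM on a common scale, since Cufflinks gives FPKM and the upper quartile of each of these 12 libraries is near 10. The scaling is not given in the sources used here, and depth and counting error are unknown. Of 24883 rows, 1 with a missing value was left out, and 821 share their symbol with another row.

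limma 3.58.1 (R 4.3.3) was fitted to log2(value + 1) of the 12 CC060 libraries, 1 mean per group, with a trended and robust prior. The 11731 genes tested had a mean of at least 1 over the 6 CC060 M libraries. Tests were two-sided, with Benjamini-Hochberg adjustment over all genes tested. The contrast with the other strains used the 60 M libraries. Calls were made at an adjusted p under 0.05. The code was tested on simulated data with these 12 libraries and 11731 genes, where it recovered 51 of 100 genes changed by 1 on the log2 scale and 91 of 100 changed by 2. Of its 150 calls 8 were false. The simulation gave each gene 1 spread in all groups, held no outlying library, and changed only genes with a mean log2 above 2. Recovery and false calls in the real libraries can therefore differ.

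Genes were named by rule: the 12 largest rises and falls among called genes whose groups do not overlap, up to 4 members of each list by lowest p, the cholesterol synthesis genes, and the 5 largest called differences from F and from other strains in each direction, passing over repeated symbols, small RNAs and provisional names. Further called genes and list members were named after their values were seen. Some genes that the rule names are not reported here, and counts over a list include every member tested. Members and lists were chosen with earlier results of these data known. Promoter windows came from RefSeq. The alternatives tried were other pseudocounts, filters, scalings and priors, library weights, a block for replicate number, other sets of libraries, and leaving out each library.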

Additional observations from a re-analysis of the deposited data

Results flagged for a closer look

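For 19 genes the HF/HS minus control difference of CC060 M livers differed from the mean of the other 9 strains' M livers, by the contrast fitted to the 60 M libraries. They are 14 of the genes called for the diet in CC060 M livers, whose difference from the other strains was called with and without control replicate 3, and the named genes with the largest called differences from the other strains. Without that library the diet effect itself was not called for 6 of the 14 (Rubie, Mmd2, Fam187b, Spic, Atp4a and Cyp26b1). The 14 were picked by their diet difference in the same CC060 M libraries that enter the contrast. The limit of that fit's shared spread, given above, holds here too. Values are the difference between the 2 log2 differences, with adjusted p.

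Among genes with a more negative difference in CC060 M, Rubie differed by -4.23 (adjusted p = 6.45e-22), Fads1, the delta-5 desaturase, by -2.10 (adjusted p = 5.62e-05), Mmd2 by -1.98 (adjusted p = 0.00478) and Cml5 by -1.76 (adjusted p = 0.0014). Fam187b differed by -1.62 (adjusted p = 0.000319), the thioesterase gene Them5 by -1.38 (adjusted p = 2.01e-06), Atp4a by -0.97 (adjusted p = 4.96e-05) and Plxnb1 by -0.76 (adjusted p = 0.0276). Of genes expressed in macrophages, Spic differed by -1.57 (adjusted p = 0.000274) and Marco by -3.51 (adjusted p = 3.64e-05).

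Fgl1 differed by -3.19 (adjusted p = 0.00587), Saa1 by -3.81 (adjusted p = 0.0253) and Saa2 by -4.58 (adjusted p = 0.0237). These 3 respond in the acute phase, and each was highest in control replicate 2. Without control replicate 3 the adjusted p was 0.0281 for Fgl1, 0.0981 for Saa1 and 0.0629 for Saa2.

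Among genes with a more positive difference in CC060 M, Cyp26b1 differed by 1.90 (adjusted p = 0.00817), Serpinb1a, a protease inhibitor, by 1.85 (adjusted p = 1.54e-05), and Adam11 by 1.83 (adjusted p = 0.000274). Krt23 differed by 1.80 (adjusted p = 0.00787), Cyp3a59 by 1.37 (adjusted p = 0.000609) and Grb10 by 1.27 (adjusted p = 3.59e-05). Serpinb1a stood at 1.51, 0.989 and 1.80 in the control livers and 19.7, 9.50 and 11.7 in the HF/HS livers, with no overlap.

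Serpina1e and Serpina1c, which encode close copies of alpha-1 antitrypsin, had larger fitted differences than these and have no fold, because controls are listed at 0. Serpina1e was listed at 0, 0 and 45403 in the control livers and at 22807, 20862 and 22763 in the HF/HS livers, and Serpina1c at 11877, 0 and 17555 in the control livers and 14492, 12612 and 13091 in the HF/HS livers.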

How the results depend on the processing

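The calls for CC060 M livers (15 higher, 21 lower) kept their signs in every alternative in which they were tested, but their number did not hold. The higher and lower counts were 17 and 13 with no filter on low values, 8 and 14 with a mean of at least 5, 7 and 15 with the 6 M libraries alone, 710 and 762 with library weights, 1088 and 1511 with the 60 M libraries, 64 and 106 without control M replicate 3 and control F replicate 1, and 28 and 69 with the 6 M libraries without control replicate 3. With 1 library left out in turn they ran from 1 to 31 and from 1 to 57. The lowest came without HF/HS M replicate 3 (1 and 1), HF/HS M replicate 1 (6 and 4), control M replicate 2 (5 and 4) and HF/HS M replicate 2 (8 and 4), and the highest without control F replicate 1. They were 14 and 11 without control M replicate 3, and 11 and 9, 11 and 11, and 12 and 10 without F HF/HS replicates 1, 2 and 3. The cause was not tested. A replicate block left 0 calls (1185 genes at an unadjusted p under 0.05) and gave 1 and 0 for M minus F, and 740 and 1148 against the other strains. Same-numbered M libraries deviated with correlations of -0.0155, -0.179 and 0.0687. Control replicate 3 correlated best with its own number, and control replicates 1 and 2 did not. These are deviations within groups of 3 libraries, so they cannot decide whether the numbers pair libraries.

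For M minus F the counts were 0 and 0. They were 0 and 1 with a pseudocount of 5 and with quantile normalization, 21 and 38 with library weights, 1 and 1 without the 2 doubtful libraries, and 0 to 2 and 0 to 1 with 1 library left out. Against the other strains (679 and 972, 41.1% higher) the split was 56.4% higher with quantile normalization. The counts were 491 and 647 with no filter, 218 and 350 with library weights, and from 67 to 1884 and from 72 to 2458 with 1 library left out, lowest without control replicate 3 and highest without control replicate 1.

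Of 2012 values of the named genes under these alternatives, 3 changed sign, all for Ggps1: -0.086 without control replicate 3, with and without the other doubtful library, and in the 6 M libraries without it. With 1 library left out in turn Ggps1 ran from -0.086 to 0.44. Of 217 list medians, 1 moved past the spread of the controls: amino acid and urea cycle, from -0.17 to 0.24 with quantile normalization. That spread includes control replicate 3, which widens it (median SD over all genes 0.363 with it and 0.114 without). Without that library the respiratory chain median went from -0.27 to 0.02 and that of red blood cell markers from -1.70 to -0.86. Both counted as within the spread. The median of all genes moved by less than 0.1 under each scaling. With 3 libraries a group and no counts, differences within the spread of the controls could not be resolved.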
